A study of Mus musculus with 12 samples.

Results

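Retinas of mice homozygous for a missense allele of *Crx* were set against retinas of wild-type (WT) mice at postnatal day 10, over all array probes that gave a detectable signal on at least 1 of the 6 arrays of these 2 groups. These were 21339 of the 45281 probes on the array, and 17845 of them were paired with 1 gene symbol, which gave 11696 of the 19088 genes named on the array. CRX is a homeodomain transcription factor of rod and cone photoreceptors. The R90Wneo/Wneo mice carry an arginine-to-tryptophan change in the homeodomain, the DNA-binding part of the protein, on both alleles. They also carry a neomycin cassette that was left in an intron. The paper reports that this cassette lowers *Crx* mRNA and mutant protein relative to the line from which it has been removed. The study also measured E168d2neo/d2neo mice, which have a frameshift that truncates the activation domain of CRX and carry the same kind of cassette, and Crx-/- mice, in which *Crx* is knocked out. Each genotype had 3 arrays, and each array held polyA RNA of retinas pooled from 1 male and 1 female at day 10, labelled as C57bl6/J. The mutant alleles were made in embryonic stem cells, 129Sv/J for R90Wneo/Wneo, and the lines were backcrossed to C57BL6/J. The p-values below measure the spread between 3 such pools a genotype, and the array signal of a whole retina cannot tell fewer photoreceptors from less RNA per photoreceptor.

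At day 10 the mouse retina is close to the end of its development, and rods, which make up most of its cells, are building their outer segments. In WT photoreceptors CRX acts with the rod factor NRL and with OTX2 at the promoters and enhancers of genes for opsins, transducins, phosphodiesterases, arrestins and outer segment proteins. Light absorbed by an opsin activates transducin, transducin activates a phosphodiesterase, the fall in cyclic GMP closes a cation channel, and recoverin, arrestin and the guanylate cyclase-activating proteins bring the cell back to its dark state. Mutations of human CRX cause cone-rod dystrophy, retinitis pigmentosa and Leber congenital amaurosis.

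Signals are given as log2 of the background-subtracted bead signal after quantile normalization, with a lower limit of 4.0, so that 4.0 stands for any signal at or under that limit. A probe was called when its adjusted p in limma was at most 0.05 and its change was at least 2-fold. Markers of photoreceptors were abundant: in WT retinas *Gnat1*, *Crx* and *Nrl* were at 15.73, 13.51 and 13.74 on this scale. *Crx* itself gave 13.65, 13.44 and 13.44 on the WT arrays and 13.57, 13.43 and 13.43 on the R90Wneo/Wneo arrays, which overlap (log2 fold change -0.03 ± 0.15 SE, adjusted p = 0.942). In Crx-/- retinas the same probe still gave a mean of 12.95, so the probe does not check the genotype labels.

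The 12 arrays had mean signals of 176 to 394 and detected 14791 to 18710 probes each, and their number limits the precision. Their median signal before normalization fell into 2 ranges, 10.3 to 11.7 on 6 arrays and 15.2 to 17.3 on the other 6. All 3 WT arrays were on the low side, whereas R90Wneo/Wneo replicate 1 was on the high side with all 3 Crx-/- arrays, and R90Wneo/Wneo replicates 2 and 3 were on the low side. The labels name no chip or scan for these sides. Lens crystallin and lens fibre genes (15 tested) had a log2 summed signal of 11.20, 10.31 and 11.33 on the WT arrays and 9.87, 10.12 and 15.06 on the R90Wneo/Wneo arrays, so replicate 3 of the mutant stood apart and was highest of the 3 for 15 of 15 lens genes. Genes of the pigment epithelium (10 tested) had a summed signal of 13.73, 12.47 and 12.42 on the WT arrays and 11.82, 10.75 and 12.36 on the R90Wneo/Wneo arrays.

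Compared with WT, 169 probes fell in R90Wneo/Wneo retinas (0.792% of those tested) and 86 rose (0.403%). The probes that fell named 127 genes and the probes that rose 58, while 16 and 17 of them had no gene name here. Of the probes that fell, 25 were not detected on any R90Wneo/Wneo array, and of those that rose, 28 were not detected on any WT array. The median change was -1.55 for the probes that fell and 1.51 for those that rose, and 38 and 18 probes passed 4-fold. All 169 and all 86 had no overlap between the 3 WT and the 3 mutant arrays, against 9.37% and 10.7% of all probes tested. These probes were called on the same arrays for a large change beside a small spread, so their separation is no further evidence for the calls. With arrays scaled to an equal mean in place of quantile normalization, the counts were 146 lower and 113 higher, so that 43.6% of the calls were higher against 33.7%. R90Wneo/Wneo replicate 1 was seldom the mutant array nearest to WT: replicate 3 was the mutant array nearest to WT for 96 of the 169 probes that fell, and replicate 1 for 17. Without replicate 1, 69 probes fell and 28 rose, and 95 of these 97 were among the calls made with all arrays. Leaving out WT replicate 1 gave 113 lower and 46 higher, and leaving out R90Wneo/Wneo replicate 3 gave 157 lower and 52 higher.

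The genes with the steepest fall included outer segment, calcium-binding and nuclear receptor genes of photoreceptors beside genes that are better known from other tissues. *Fscn2*, the fascin that bundles actin in photoreceptor outer segments, gave 10.56, 10.72 and 10.43 in WT and 5.48, 7.53 and 8.96 in the mutant. The mutant arrays span more than 3 log2 units, yet all lie under WT, and the fall was 9.51-fold (-3.25 ± 0.69 SE, adjusted p = 0.042), while its second probe was at -0.63 (adjusted p = 0.355). Recoverin (*Rcvrn*), a calcium sensor of photoreceptors, gave 10.86, 11.41 and 10.99 in WT and 6.58, 8.40 and 9.15 in the mutant, an 8.24-fold fall (adjusted p = 0.0189). *Esrrb*, an orphan nuclear receptor that supports rod survival and energy metabolism, gave 12.29, 12.15 and 11.92 in WT against 8.54, 9.28 and 10.55. Its fall of 6.33-fold (adjusted p = 0.0107) was the only call downward among the 15 photoreceptor transcription factors tested, beside 0.949% of all genes. *Ramp3*, which pairs with calcitonin-like receptors, fell 7.59-fold, and all 3 of its probes were called. For genes detected on only some mutant arrays, folds are given with each mutant array at no less than its lowest detected signal. *Rpl3l*, a ribosomal protein paralog known from striated muscle, went from 8.58, 8.03 and 7.84 to 4.0, 4.15 and 5.56 (adjusted p = 0.00307). It was detected on 1 of 3 mutant arrays, and its fall was 8.87-fold on that footing. *Rnf207*, known from the heart, was detected on 2 of 3 and fell 7.42-fold, and *Ccdc113*, a component of motile and primary cilia, was detected on 1 of 3 and fell 5.42-fold. *Susd3*, detected on all 3 mutant arrays, fell 6.46-fold.

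Several steep falls ended under detection on all 3 mutant arrays, and for these a bound is given: the WT mean was set against the mean of, on each mutant array, the lowest signal of a detected probe or the probe's own signal if that was higher. *Lcn2*, the lipocalin that reactive glia secrete, gave 7.23, 7.41 and 6.73 in WT and 4.0, 4.0 and 4.39 in the mutant, at least 5.41-fold lower (adjusted p = 8.32e-05). *Bmp15*, a growth factor of oocytes, was at least 4.23-fold lower, and *Mc1r*, the melanocortin receptor of pigment cells, at least 3.76-fold lower. *Mc1r* was highest on WT replicate 1, at 7.13, as was the summed pigment epithelium signal. The part of pigment cell RNA in this fall was not tested. Of the 14 genes plotted with the largest falls, 9 stayed called with each of the 6 arrays left out in turn. The call was lost for *Fscn2* in all cases except without R90Wneo/Wneo replicate 3 (adjusted p up to 0.118), for *Rcvrn* without any 1 WT array (up to 0.071), for *Ramp3* and *Mc1r* without R90Wneo/Wneo replicate 1 (0.0525 and 0.055) and for *Grtp1* without WT replicate 1 (0.0515).

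**Figure D1:**
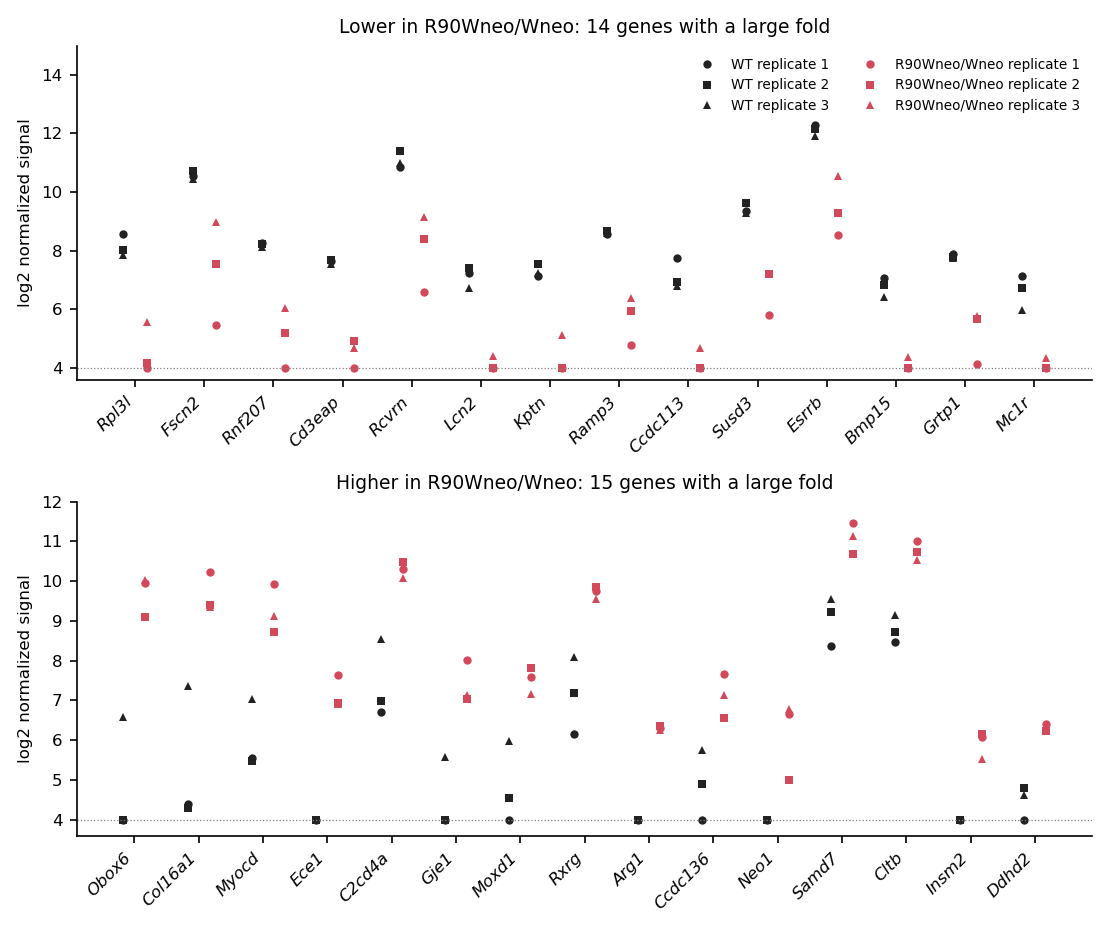
Log2 normalized signal (vertical axis) of the 14 genes shown that fell most and the 15 that rose most in R90Wneo/Wneo retinas, with a point for each of the 3 WT and 3 mutant arrays and a dotted line at the lower limit of 4. The arrays of the 2 genotypes do not overlap for any of them, which the choice of these genes required, and for *Fscn2* the mutant arrays spread from 5.48 to 8.96.

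Among rod phototransduction genes, 3 of 21 tested fell and none rose, beside 0.949% of all genes that fell and 0.359% that rose. The median change over the list was -0.74 against 0.01 over all genes, 19 of the 21 genes had a negative change, and in 14 all mutant arrays lay under all WT arrays (11% of all genes did). Recoverin, described above, was among those that fell. *Kcnv2*, a modulatory subunit of the photoreceptor potassium channel, gave 11.72, 11.05 and 10.97 in WT and 9.82, 9.60 and 10.05 in the mutant, a 2.69-fold fall (adjusted p = 0.0454) that was not called without any 1 of the 6 arrays (adjusted p up to 0.169). The rod phosphodiesterase inhibitory subunit *Pde6g* was at 14.63, 14.83 and 14.76 against 13.58, 13.72 and 14.01. Its adjusted p was 0.018 but its change of 1.96-fold missed the 2-fold limit.

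Other central rod genes had large mean differences that did not pass the test, and in these R90Wneo/Wneo replicate 3 was the mutant array nearest to WT. The rod transducin subunit *Gnat1* gave 15.83, 15.71 and 15.64 in WT and 11.71, 13.82 and 15.31 in the mutant (-2.11 ± 0.66 SE, adjusted p = 0.184). The phosphodiesterase catalytic subunit *Pde6a* gave 11.65, 11.88 and 11.77 against 8.01, 9.28 and 10.79 (-2.41, adjusted p = 0.0643). *Guca1b*, a guanylate cyclase-activating protein, gave 9.94, 10.69 and 10.64 against 5.94, 7.30 and 10.42, and here the arrays overlap (adjusted p = 0.233). Without R90Wneo/Wneo replicate 3 both *Gnat1* and *Pde6a* were called lower (adjusted p = 0.0262 and 0.0105). The second catalytic subunit *Pde6b* (-0.41), rod arrestin *Sag* (-0.52), the channel subunit *Cngb1* (-0.46) and phosducin *Pdc* (-0.03) showed small differences that were not called.

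The spread between mutant arrays ran through the list. R90Wneo/Wneo replicate 3 was the highest of the 3 mutant arrays in 18 of the 21 rod genes and replicate 1 the lowest in 15, and the median difference from the WT mean was -0.96, -0.92 and -0.37 on replicates 1, 2 and 3. Over all genes replicate 3 was highest in 2998 of 11696, and the 3 medians were -0.00, 0.02 and -0.02. In Crx-/- retinas the rod list stood at -1.30, -1.49 and -1.22. The median SD of a rod gene was 0.141 over the WT arrays and 0.306 over the R90Wneo/Wneo arrays, while over all genes it was 0.215 and 0.191. Replicate 3 was also the array with the high lens signal and replicate 1 the array on the high side of the median signal, and the part of either in this spread was not tested.

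**Figure D2:**
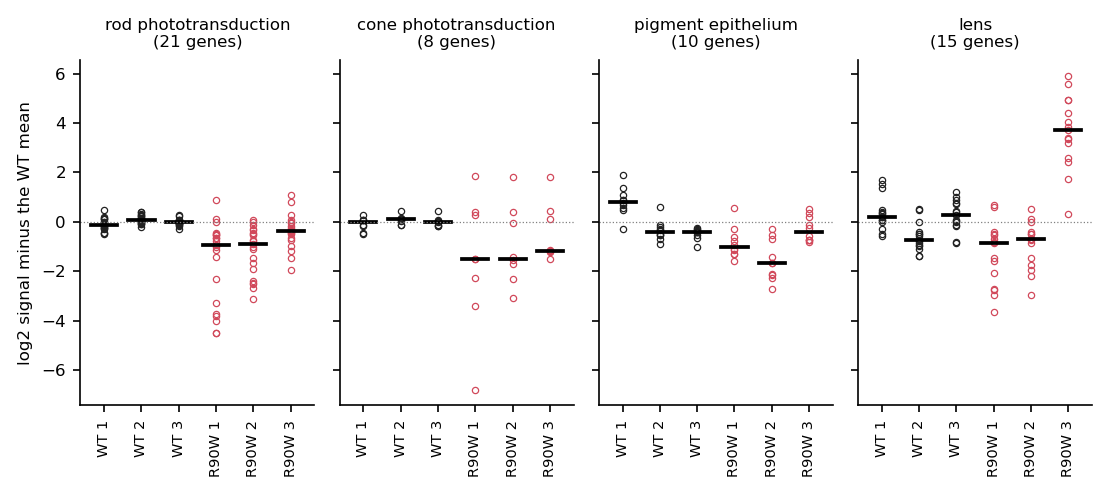
Difference of each gene's log2 normalized signal from its mean over the 3 WT arrays (vertical axis) on each WT and R90Wneo/Wneo array, for the rod, cone, pigment epithelium and lens lists, with a point for each gene and the median as a bar. Rod genes stand at medians of -0.96, -0.92 and -0.37 on mutant replicates 1, 2 and 3, and lens genes at -0.86, -0.68 and 3.71.

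Of the 8 cone phototransduction genes tested, 4 fell and 1 rose, with a median change of -1.40, beside 0.949% and 0.359% of all genes and a median of 0.01. Cone arrestin (*Arr3*), which quenches active cone opsin, gave 10.17, 10.21 and 9.95 in WT and 6.72, 7.78 and 8.60 in the mutant, a 5.33-fold fall (-2.41 ± 0.45 SE, adjusted p = 0.0224). The cone transducin subunit *Gnat2* gave 9.83, 10.07 and 9.91 against 8.41, 8.37 and 8.73. Here the mutant arrays were tight, and the fall of 2.70-fold had an adjusted p of 0.0027. Both cone phosphodiesterase genes fell as well: the catalytic subunit *Pde6c* by 2.57-fold (adjusted p = 0.0126, with a second probe at -1.25 and an adjusted p of 0.147) and the inhibitory subunit *Pde6h* by 3.29-fold (adjusted p = 0.0143), from 11.15, 12.10 and 11.70 to 9.37, 9.93 and 10.49. The exception was *Gngt2*, the cone transducin gamma subunit, which rose from 10.60, 11.09 and 11.47 to 12.91, 12.86 and 12.86, or 3.53-fold (1.82 ± 0.24 SE, adjusted p = 0.00446). Genes for 2 subunits of the same trimeric protein, *Gnat2* and *Gngt2*, thus moved in opposite directions, and the third, *Gnb3*, was not called (0.26). The medium-wavelength cone opsin *Opn1mw* gave 13.18, 13.24 and 12.94 in WT and 6.32, 10.04 and 11.92 in the mutant, which spanned more than 5 log2 units (-3.69 ± 1.04 SE, adjusted p = 0.128). It was called without R90Wneo/Wneo replicate 3 (adjusted p = 0.0291). The short-wavelength opsin *Opn1sw* and the cone channel genes *Cnga3* and *Cngb3* had no named probe detected on the 6 arrays compared. *Gnat2* and *Gngt2* kept their calls with each array left out, but *Gngt2* was not called with SAM, the test that the study used. *Arr3* lost its call in all cases except without R90Wneo/Wneo replicate 3 (adjusted p up to 0.0829), *Pde6c* without R90Wneo/Wneo replicate 1 (0.0715), and *Pde6h* without that array, WT replicate 2 or WT replicate 3 (up to 0.0608).

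Outer segment structure genes numbered 16, of which 2 fell (*Fscn2* and *Myo7a*), none rose, and 15 had a negative change (median -0.62), against the same shares of all genes as for the cone list. *Myo7a*, the myosin that moves opsin through the connecting cilium and pigment granules in the pigment epithelium, gave 9.10, 9.0 and 8.61 in WT and 6.29, 7.57 and 6.95 in the mutant, a 3.91-fold fall (adjusted p = 0.00788). The disc rim proteins *Prph2* (-0.63, adjusted p = 0.195) and *Rom1* (-0.44, adjusted p = 0.485) were not called, nor were the photoreceptor chaperone *Aipl1* (-0.80, adjusted p = 0.0681) and the axoneme protein *Rp1l1* (-0.77, adjusted p = 0.119). In the visual cycle, which returns the chromophore of the opsins to its light-sensitive form, 2 of 11 genes fell and none rose (median -0.39), again beside 0.949% and 0.359% of all genes. Both act in photoreceptors themselves: the retinol dehydrogenase *Rdh12*, at 13.29, 13.25 and 13.27 against 11.03, 11.71 and 12.03 (3.21-fold, adjusted p = 0.0254), and the retinal transporter *Abca4*, at 11.10 ± 0.12 (SD, n = 3) against 9.65 ± 0.39 (2.74-fold, adjusted p = 0.00854, with all 3 probes called). *Rdh12* lost its call in all cases except without R90Wneo/Wneo replicate 3 (adjusted p up to 0.117). Genes of the steps in the pigment epithelium and glia were not called, with *Rdh5* at -1.55 (adjusted p = 0.0753), *Rgr* at -1.11 (adjusted p = 0.28), *Rpe65* at -0.37 and *Rlbp1* at 0.01. The pigment epithelium markers had a median change of -1.13 with none of 10 called, and medians of -1.02, -1.67 and -0.43 on the 3 mutant arrays. The part of pigment epithelium RNA in the values of *Rdh5*, *Rgr* and *Myo7a* was not tested.

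At the photoreceptor synapse 1 of 22 genes fell and none rose (median -0.17), where 0.949% of all genes fell and 0.359% rose. *Cabp4*, the calcium-binding protein that tunes the presynaptic calcium channel, gave 10.97, 11.12 and 11.14 in WT and 8.57, 8.92 and 9.89 in the mutant, a 3.86-fold fall (adjusted p = 0.0163, lost in all cases except without R90Wneo/Wneo replicate 3, up to 0.0826). The channel subunit *Cacna1f* (-0.75, adjusted p = 0.0441), the scaffold *Dlg4* (-0.89, adjusted p = 0.03) and the adhesion protein *Elfn1* (-0.94, adjusted p = 0.0229) passed the adjusted p but not the fold limit, and the active zone protein *Pclo* did so upward (0.87, adjusted p = 0.0422). Among 28 cilium and trafficking genes, *Ccdc113* and *Fam161a* fell and none rose (median -0.28), beside those same shares. *Fam161a*, a microtubule-binding protein of the connecting cilium, went from 9.80, 9.56 and 9.55 to 8.21, 8.42 and 8.55, or 2.37-fold (adjusted p = 0.00364).

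Of 21 genes of photoreceptor energy and nucleotide metabolism, 4 fell and none rose, while the list median was -0.13 and 0.949% of all genes fell. *Nxnl2*, a thioredoxin-like factor that supports photoreceptor survival, gave 12.46, 12.55 and 12.43 in WT and 9.79, 10.54 and 10.88 in the mutant, a 4.21-fold fall (adjusted p = 0.00307). The mitochondrial creatine kinase *Ckmt1* gave 13.41, 13.51 and 13.24 against 11.01, 11.76 and 11.61, a 3.79-fold fall (adjusted p = 0.00307). Guanylate kinase *Guk1*, which recycles GMP, fell 2.30-fold (adjusted p = 0.0067). *Mpp4*, counted in this list, is a membrane-associated guanylate kinase homologue of photoreceptor terminals and not a metabolic enzyme. It fell 3.24-fold (adjusted p = 0.0196). *Nxnl2*, *Ckmt1* and *Guk1* kept their calls with each array left out, and *Mpp4* lost its call in all cases except without R90Wneo/Wneo replicate 3 (adjusted p up to 0.104). A list of 67 genes of human retinal dystrophies had 10 that fell and none that rose (median -0.36, with 0.949% and 0.359% over all genes), among them *Fscn2*, *Crb1*, *Cabp4*, *Pde6h*, *Rdh12*, *Abca4*, *Kcnv2*, *Pde6c* and *Fam161a*. *Crb1*, an apical polarity protein, fell 3.93-fold (adjusted p = 0.0126, lost without WT replicate 1 or R90Wneo/Wneo replicate 1, up to 0.055), whereas its second probe was at -0.30 (adjusted p = 0.596). Of 20 genes that the study names in its text, which were picked on these samples and are no independent evidence, 9 fell and 1 rose.

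**Figure D3:**
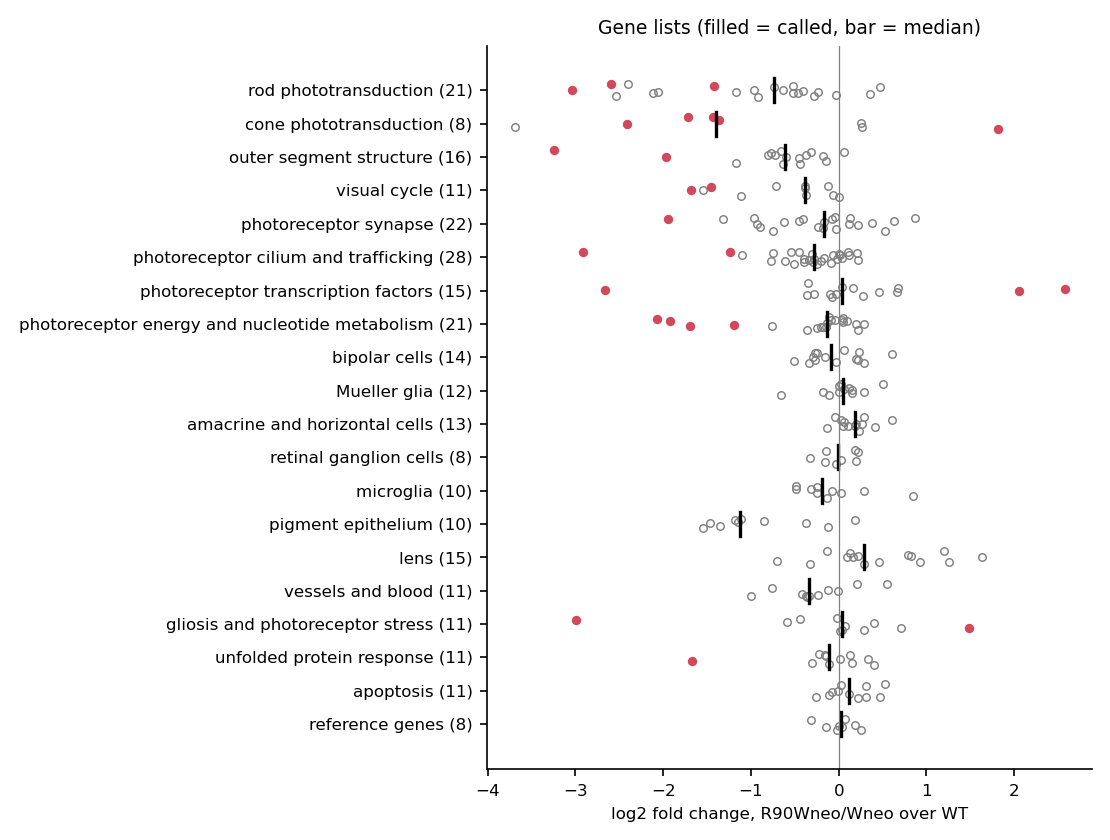
Log2 fold change of R90Wneo/Wneo over WT (horizontal axis) for each tested gene of the lists of functions and cell types (vertical axis, with the number of genes in brackets), 1 point a gene, called genes filled and the median as a bar. The rod, cone and outer segment lists lie to the left of 0 with medians of -0.74, -1.40 and -0.62, and the lists of other retinal neurons are centred near 0.

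Promoter sequence was read for the called genes from RefSeq windows (GRCm38.p6, from 250 bases before to 50 after an annotated start), which held 101 of the 127 genes that fell and 45 of the 58 that rose. The core of the CRX site was searched as TAATCC on either strand (GGATTA on the other). It was present in 15 of 130 windows of genes that fell (11.5%), in 1 of 64 windows of genes that rose (1.56%), in 5.98% of windows of all genes tested and in 7.06% of all windows in the table. The letters TGCTGA, which are part of the NRL site, and their complement TCAGCA on the other strand were in 20%, 10.9%, 15.9% and 19.5% of the same sets. These shares are a description of letters in short windows. Among named genes that fell and hold the core, *Gnat2*, *Abca4*, *Nxnl2*, *Ccdc113* and *Cd3eap* kept their call with each array left out. The core begins 129 bases before the start in *Ccdc113* and 109 in *Cd3eap*. The windows of the first 3, chosen for printing as photoreceptor genes after their values were seen, are printed with the core in capitals beside *Samd7*, the only gene that rose with a core in its window. All 4 lie on the plus strand, at chr3:108092816-108093115 (*Gnat2*), chr3:122044210-122044509 (*Abca4*), chr13:51170775-51171074 (*Nxnl2*) and chr3:30746043-30746342 (*Samd7*).
Gnat2: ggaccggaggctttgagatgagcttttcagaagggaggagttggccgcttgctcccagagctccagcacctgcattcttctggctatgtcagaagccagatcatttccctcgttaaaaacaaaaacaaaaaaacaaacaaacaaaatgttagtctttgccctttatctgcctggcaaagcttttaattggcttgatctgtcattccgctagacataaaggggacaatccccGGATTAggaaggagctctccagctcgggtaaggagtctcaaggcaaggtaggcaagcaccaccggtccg
Abca4: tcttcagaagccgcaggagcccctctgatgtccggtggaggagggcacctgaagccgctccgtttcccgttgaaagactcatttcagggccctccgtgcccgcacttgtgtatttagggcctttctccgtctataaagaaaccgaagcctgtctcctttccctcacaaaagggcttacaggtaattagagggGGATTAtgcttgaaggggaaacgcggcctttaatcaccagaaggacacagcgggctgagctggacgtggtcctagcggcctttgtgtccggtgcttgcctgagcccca
Nxnl2: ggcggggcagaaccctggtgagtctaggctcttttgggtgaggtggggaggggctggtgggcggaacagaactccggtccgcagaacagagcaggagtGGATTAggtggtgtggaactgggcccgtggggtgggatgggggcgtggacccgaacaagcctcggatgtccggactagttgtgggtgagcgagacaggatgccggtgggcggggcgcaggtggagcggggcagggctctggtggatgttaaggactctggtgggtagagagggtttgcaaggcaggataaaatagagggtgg
Samd7: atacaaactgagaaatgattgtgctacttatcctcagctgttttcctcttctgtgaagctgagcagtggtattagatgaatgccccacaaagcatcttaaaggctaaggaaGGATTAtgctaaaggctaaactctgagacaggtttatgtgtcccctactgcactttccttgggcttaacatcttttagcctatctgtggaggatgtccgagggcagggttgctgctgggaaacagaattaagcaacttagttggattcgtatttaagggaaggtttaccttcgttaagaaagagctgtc
In all 4 the letters on the gene's strand are GGATTA, and they begin 19 bases before the annotated start in *Gnat2*, 58 in *Abca4*, 152 in *Nxnl2* and 139 in *Samd7*. The core lies nearest to the start in *Gnat2*, which fell 2.70-fold, while *Samd7* with the same letters rose 4.17-fold.

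Of the 15 photoreceptor transcription factors tested, *Esrrb* fell and 2 rose (median 0.04), beside 0.949% of all genes that fell and 0.359% that rose. *Nrl*, which fixes the rod fate, gave 13.80, 13.77 and 13.65 in WT and 13.50, 13.37 and 13.50 in the mutant (adjusted p = 0.602). *Otx2*, the homeobox factor upstream of *Crx*, gave 11.81, 11.59 and 11.89 against 12.61, 12.33 and 12.36, with no overlap but no call (0.67, adjusted p = 0.137). Both factors that rose act in photoreceptor identity. *Rxrg*, the retinoid X receptor of developing cones, went from 6.16, 7.19 and 8.09 to 9.75, 9.85 and 9.55, a 5.95-fold rise (2.57 ± 0.36 SE, adjusted p = 0.0067). *Samd7*, a polycomb cofactor of rods, went from 8.36, 9.22 and 9.54 to 11.47, 10.69 and 11.14, a 4.17-fold rise (adjusted p = 0.0363) that was not called without any 1 of the 6 arrays (adjusted p up to 0.175).

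Among genes that rose most, *Obox6*, a homeobox gene of oocytes that neighbours *Crx*, went from 4.0, 4.0 and 6.59 to 9.95, 9.10 and 10.02 (4.83 ± 0.57 SE, adjusted p = 0.00307). It was detected on 1 of 3 WT arrays, and with each WT array at no less than its lowest detected signal the rise was 17.4-fold. *Col16a1*, a fibril-associated collagen, rose from 4.38, 4.29 and 7.37 to 10.22, 9.40 and 9.34 (adjusted p = 0.0105). Also detected on 1 of 3 WT arrays, it rose 14.1-fold on the same footing. For both genes WT replicate 3 stood above the other WT arrays, and it was the WT array nearest to the mutant for 48 of the 86 probes that rose. *Myocd*, a coactivator of smooth and cardiac muscle genes, rose 9.35-fold (adjusted p = 0.0104), with 3 of its 4 probes called. *Ece1*, the endothelin-converting enzyme, was not detected on any WT array with 1 probe and stood at 7.64, 6.94 and 6.90 in the mutant, at least 4.40-fold higher (adjusted p = 8.63e-05). Its other probe, detected in both genotypes, rose 2.79-fold (adjusted p = 0.00358). Arginase (*Arg1*), the last enzyme of the urea cycle, was on 1 probe at 4.0 on all WT arrays and at 6.30, 6.35 and 6.27 in the mutant, at least 2.43-fold higher (adjusted p = 0.000238). Its second probe, detected on 1 WT array, was at 1.77 and was not called (adjusted p = 0.0861). *Cltb*, a clathrin light chain, rose from 8.78 ± 0.34 (SD, n = 3) to 10.75 ± 0.24, or 3.91-fold (adjusted p = 0.00136). *C2cd4a* rose 7.37-fold on 1 probe, while its second probe was at 0.72 (adjusted p = 0.327). *Gje1*, a connexin gene of the lens, was detected on 1 of 3 WT arrays and stood at 8.0, 7.03 and 7.13 in the mutant, a 4.47-fold rise on the footing used for *Obox6*, and the part of lens RNA in it was not tested. The netrin receptor gene *Neo1* had 3 of 4 probes called, with at least 2.17-fold for the largest, and the other probe at -0.18 (adjusted p = 0.865). With SAM 4 of the 15 genes that rose most stayed called, and 6 did with the 6 arrays of the 2 genotypes fitted alone. For the 15 genes with the largest falls, of which 1 is not reported here, these counts were 11 and 10. Calls among the 15 genes that rose most held with each array left out for 8. They were lost for *Col16a1* and *Myocd* without R90Wneo/Wneo replicate 1 (adjusted p = 0.0691 and 0.0637), for *Moxd1* without that array, replicate 2, WT replicate 1 or WT replicate 2 (up to 0.0903), for *Ccdc136* and *Neo1* without any 1 of at least 4 of the 6 arrays (up to 0.18 and 0.151), and for *Samd7* and *Insm2* without any 1 of the 6 (up to 0.175 and 0.155).

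Genes of the other retinal cell types were not called in either direction: none of 14 for bipolar cells (median -0.09), 12 for Mueller glia (0.04), 13 for amacrine and horizontal cells (0.19), 8 for retinal ganglion cells (-0.01), 10 for microglia (-0.19) and 11 for vessels and blood (-0.33). With 1.31% of all genes called, lists of this size hold few calls by that share alone. None of 11 apoptosis genes (0.12), 9 proliferation genes (-0.02) or 8 reference genes (0.02) was called either. The lens list had a median of 0.29 with none of 15 called, a value that averages 2 mutant arrays under WT and 1 above it: the crystallin *Cryba1* gave 8.83, 7.30 and 9.13 in WT and 4.77, 6.67 and 12.82 in the mutant. In the list of gliosis and photoreceptor stress genes 1 of 11 fell (*Lcn2*) and 1 rose (*Ece1*), beside 0.949% and 0.359% of all genes. The glial filament gene *Gfap* was not called (0.29, adjusted p = 0.58). Of 11 genes of the unfolded protein response, 1 fell (*Trib3*) and none rose, again beside 0.949% and 0.359% of all genes. *Trib3*, a pseudokinase induced by the stress factors ATF4 and CHOP, fell from 5.89, 6.32 and 6.04 to 4.11, 4.36 and 4.78 (adjusted p = 0.00171). It was detected on 1 of 3 mutant arrays, and a second probe was at -0.53 (adjusted p = 0.491).

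Several called genes lay close to *Crx* on chromosome 7. Within 5 Mb of *Crx* 88 genes were tested by their brightest probe, and 4 fell and 3 rose, or 7.95% against 1.31% of all genes. Over all 119 probes in this stretch 6 fell and 3 rose. The 3 mutant lines, which share the same WT arrays, gave similar values at these probes. *Obox6* stood at 4.83 in R90Wneo/Wneo, 5.38 in Crx-/- and 4.97 in E168d2neo/d2neo against WT. *Pnmal1* stood at -2.38, -2.38 and -2.42, *Clasrp* at -2.25, -2.26 and -2.65, and *Apoc1* at 1.61, 1.93 and 1.56 in the same order. *Cd3eap*, a subunit gene of RNA polymerase I, gave 7.65, 7.68 and 7.54 in WT and 4.0, 4.91 and 4.69 in R90Wneo/Wneo on 1 probe (adjusted p = 9.91e-05, detected on 2 of 3 mutant arrays). Its other probe, brighter in WT at a mean of 9.55, was at 9.65 in the mutant (adjusted p = 0.833). *Kptn*, a gene of a nutrient-sensing complex, showed the same disagreement, with 1 probe at -2.93 (adjusted p = 0.00307, detected on 1 of 3 mutant arrays) and the other at 0.33 (adjusted p = 0.601). *Crxos*, which lies opposite *Crx* on the other strand, was the exception among the called genes of this stretch, with -1.24 in R90Wneo/Wneo, -3.08 in Crx-/- and -2.38 in E168d2neo/d2neo. Only for *Crxos* was the difference between R90Wneo/Wneo and Crx-/- past the test (1.85 ± 0.26 SE, adjusted p = 0.0167), and its call against WT was lost without any 1 of the 6 arrays (adjusted p up to 0.147). The genotype at *Crx* and the strain origin of the segment around it cannot be told apart in these groups.

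**Figure D4:**
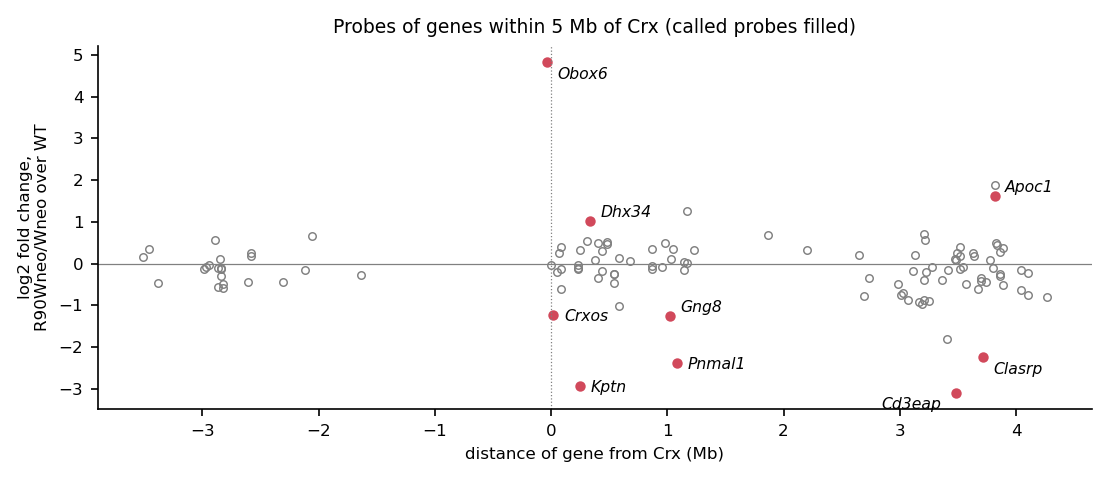
Log2 fold change of R90Wneo/Wneo over WT (vertical axis) for the 119 probes tested in genes within 5 Mb of *Crx*, by distance of the gene from *Crx* in Mb (horizontal axis), with called probes filled. The 6 probes that fell and the 3 that rose lie among probes near 0, and *Obox6* at 4.83 is the highest.

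Some photoreceptor genes had more signal in R90Wneo/Wneo than in Crx-/- retinas, by a direct test between these genotypes. Of the 21339 probes tested, 65 were higher in R90Wneo/Wneo than in Crx-/- (0.305%) and 25 were lower (0.117%). The tested probes were detected on at least 1 WT or R90Wneo/Wneo array, so probes detected only in the other genotypes could not be called. This filter can leave out probes lower in R90Wneo/Wneo, and the 2 counts are therefore not on an equal footing. Among rod genes 2 of 21 were higher and none lower (median 0.63), beside 0.359% and 0.103% of all genes, and among the 67 human dystrophy genes 6 were higher and none lower. *Rdh12* was 2.74 higher on the log2 scale (adjusted p = 0.00725), *Cabp4* 2.35 higher (adjusted p = 0.0167), *Pde6h* 2.01 higher (adjusted p = 0.0167), *Nxnl2* 1.66 higher (adjusted p = 0.0172) and *Rp1l1* 1.68 higher (adjusted p = 0.01). *Opn1mw* was not detected on any Crx-/- array, and its mean signal was at least 25.9-fold higher in R90Wneo/Wneo (adjusted p = 0.0488). This bound holds for the mean of R90Wneo/Wneo arrays at 6.32, 10.04 and 11.92, and not for each of them. Other genes that were called against WT did not differ from Crx-/- past the test: the difference was 0.16 ± 0.16 SE for *Gnat2*, 0.27 ± 0.22 SE for *Pde6c*, 0.03 ± 0.24 SE for *Gngt2* and 0.18 ± 0.36 SE for *Rxrg*. Beside the photoreceptor genes, *Rec8* (3.19, adjusted p = 0.0281) and 1 probe of *Myt1l* (3.00, adjusted p = 0.00141) were higher in R90Wneo/Wneo. In Crx-/- retinas *Rec8* was detected on 1 of 3 arrays and this *Myt1l* probe on 2 of 3, so both differences rest in part on the lower limit of 4.0. The brighter *Myt1l* probe was at 0.13 (adjusted p = 0.873). Lower in R90Wneo/Wneo were *Krt73*, a hair follicle keratin (-4.97, adjusted p = 2.6e-05), *Hopx*, a homeodomain-only protein (-2.56, adjusted p = 0.0172), and *Arrdc4* (-1.85, adjusted p = 0.00498). At *Rec8*, *Hopx* and *Arrdc4*, R90Wneo/Wneo stood at means of 7.95, 8.72 and 9.01 against 7.88, 8.54 and 8.82 in WT, and none was called against WT. E168d2neo/d2neo stood at 8.45, 8.83 and 8.89 and was not called either, so only Crx-/- was called against WT at these genes. *Krt73* stood at 4.57, 4.0 and 4.0 in WT, at 5.30, 5.57 and 5.38 in R90Wneo/Wneo and at 9.85, 10.36 and 10.95 in Crx-/-. All 3 Crx-/- arrays but only replicate 1 of R90Wneo/Wneo were on the high side of the median signal, and with that side as a block 8 probes were lower and 10 higher. Without Crx-/- replicate 2 the counts were 5 lower and 2 higher, so most of the genes named here as higher lost their call. Without Crx-/- replicate 1 the counts were 14 and 26. Leaving out replicate 2 of R90Wneo/Wneo gave 12 lower and 20 higher, and leaving out its replicate 3 gave 8 and 15.

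The direct test against E168d2neo/d2neo retinas called more probes higher than lower. In R90Wneo/Wneo 99 probes were higher (0.464%) and 21 lower (0.0984%). Here too, probes detected only in E168d2neo/d2neo or Crx-/- retinas were not tested, so these counts are not on an equal footing. Among rod genes 9 of 21 were higher and none lower (median 1.73), beside 0.547% and 0.094% of all genes, and among the human dystrophy genes 14 of 67 were higher and none lower. *Pde6h* and *Cabp4* were not detected on any E168d2neo/d2neo array, and their signal was at least 36.3-fold (adjusted p = 3.36e-06) and at least 20.8-fold higher in R90Wneo/Wneo (adjusted p = 3.38e-05). *Rdh12* (5.12 on the log2 scale, adjusted p = 2.53e-05) and *Cngb1* (3.98, adjusted p = 0.000452, detected on 2 of 3 E168d2neo/d2neo arrays) were higher as well. *Cngb1* was not called against WT, and this probe stood at 9.15, 8.57 and 9.40 in R90Wneo/Wneo against 9.55, 9.49 and 9.52 in WT. Lower in R90Wneo/Wneo were *Krt73* (-7.06, adjusted p = 3.38e-07), the fatty acid transporter gene *Slc27a2* (-3.20, adjusted p = 0.00228, detected on 1 of 3 R90Wneo/Wneo arrays) and the complement inhibitor gene *Serping1* (-2.66, adjusted p = 2.53e-05). *Serping1* stood at 6.33, 6.51 and 6.60 in WT, 7.24, 7.71 and 7.36 in R90Wneo/Wneo and 10.13, 9.96 and 10.21 in E168d2neo/d2neo. Without E168d2neo/d2neo replicate 1 the count of lower probes was 40, and the count of higher probes was 63 without E168d2neo/d2neo replicate 3. It was 59 or 57 when replicate 2 or 3 of R90Wneo/Wneo was left out.

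**Figure D5:**
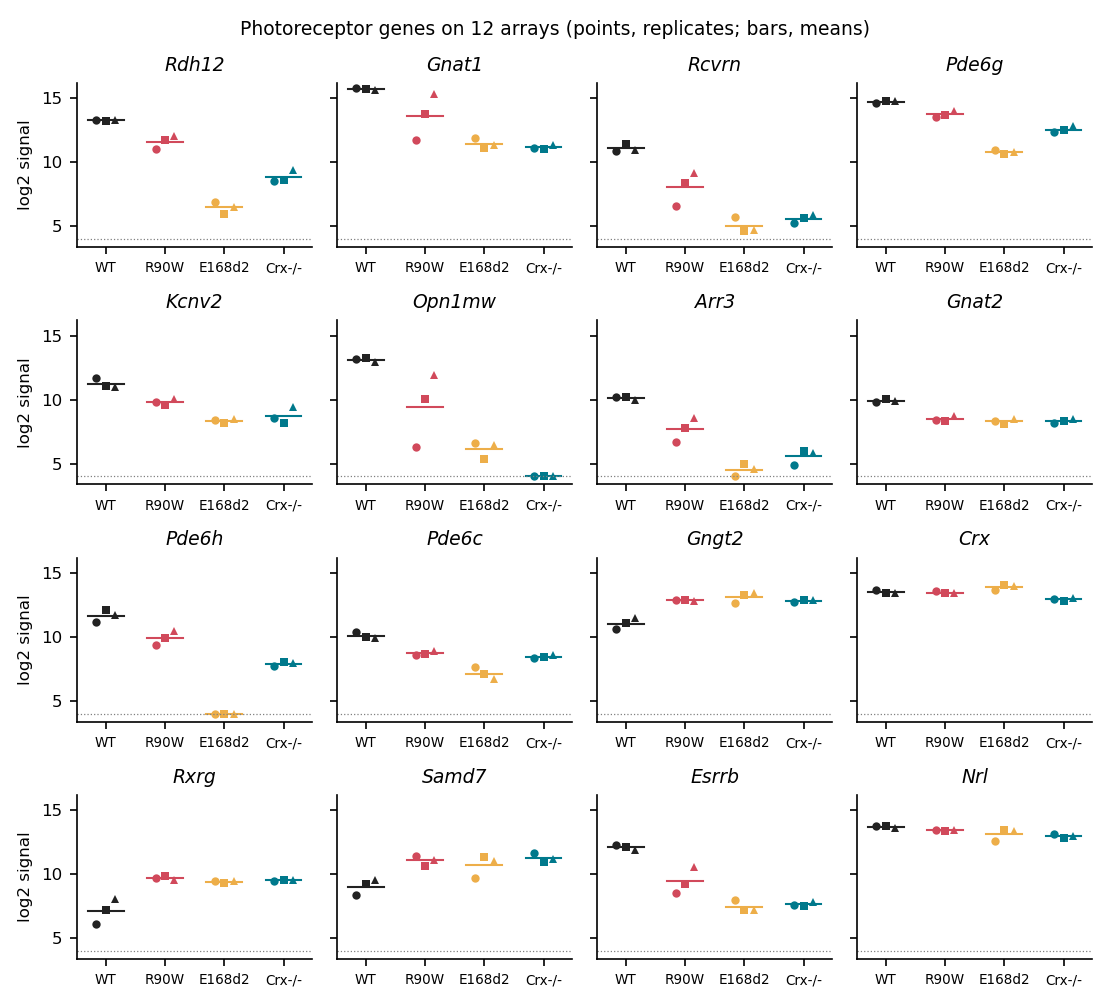
Log2 normalized signal (vertical axis) of photoreceptor genes on the 12 arrays of the 4 genotypes (horizontal axis, where R90W and E168d2 stand for R90Wneo/Wneo and E168d2neo/d2neo), with a point for each replicate, a bar at the mean and a dotted line at the lower limit of 4. *Rdh12* stands at 13.27 in WT, 11.59 in R90Wneo/Wneo, 8.85 in Crx-/- and 6.47 in E168d2neo/d2neo.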

How the data were processed

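The authors deposited 1 table of background-subtracted bead intensity for each of 12 Illumina MouseWG-6 v2.0 arrays, not yet normalized, with a detection p-value for each probe as deposited by the authors. Its column headings leave out the cassette that the sample labels give, and 1 R90Wneo/Wneo heading is spelt differently from the other 2. The deposited normalized value table was not used, because its probe identifiers stood beside the values of other probes. Intensities of 12 arrays were quantile normalized on the linear scale, raised to a floor of 16 and converted to log2. The 21339 probes with a detection p under 0.05 on at least 1 of the 6 arrays compared were fitted with limma 3.58.1 (R 4.3.3) in 1 model with a mean for each of the 4 genotypes (residual degrees of freedom 8, prior 2.83). The Benjamini-Hochberg adjustment ran over all probes tested. Calls needed an adjusted p no higher than 0.05 together with a 2-fold or larger change, the fold and false discovery limits of the study. The study itself used SAM, which was run here as an alternative. With 3 arrays against 3, an exact two-sided permutation test of a single probe cannot go below 0.1, so none was run. Probes were named through the platform annotation (34885 probes with 1 gene) or, for 45 probes, the study's tables, as for Gnat1. A gene list takes 1 probe a gene, the one with the highest mean signal over 12 arrays, and the shares called and the median over all genes are given for comparison. Genes named in the text are the 15 with the largest falls and rises (1 of them is not reported here), called list members and the largest differences in the direct tests, with other list members given as values. The members and lists were chosen with earlier results of these data known. The fit was tested on simulated normal noise with the same spread in all genotypes and known changes in bright probes only. That simulation does not cover probes near the floor or a larger spread in 1 genotype. Alternatives changed the samples, normalization, background, floor, detection filter, test and blocks, and left out each array in turn.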

Additional observations from a re-analysis of the deposited data

How the results depend on the processing

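None of the 51 called named genes changed sign or was called in the opposite direction under any alternative listed here. The counts of 169 lower and 86 higher probes against WT depended on the setting. The 6 arrays of the 2 genotypes fitted alone gave 96 and 39, with 27 of the 51 named genes still called. SAM gave 121 and 15, and no detection filter gave 97 and 41. Leaving out 1 array gave 69 to 157 lower and 28 to 105 higher. A normexp background gave 164 and 78, a floor of 32 gave 157 and 63, a floor of 8 gave 113 and 73, and detection on all 3 arrays of a genotype gave 193 and 125. Against Crx-/- (25 lower, 65 higher), leaving out 1 array gave 5 to 21 lower and 2 to 61 higher, and against E168d2neo/d2neo (21 and 99) 14 to 40 lower and 57 to 100 higher. The side of the median signal as a block, an alternative chosen after seeing the data, gave 122 and 65 against WT and 8 and 10 against Crx-/-.

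The replicate numbers are shared in the labels and were not used as pairs in the main fit. The correlations of deviations between same-numbered WT and R90Wneo/Wneo arrays were 0.109, 0.0346 and 0.042. Between differently numbered arrays they ran from -0.0843 to 0.0542. With deviations from means of 3 arrays, these values cannot settle whether the arrays are paired. With the replicate block, 153 probes were lower and 80 higher against WT, 17 and 43 against Crx-/-, and 20 and 93 against E168d2neo/d2neo.

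With 3 pools a genotype, a large mean difference with spread arrays, as for Gnat1 and Opn1mw, did not pass the test. Signals near the floor understate a change. Values set to the floor also show no spread between arrays, as for *Ece1* and *Arg1* on the WT arrays (SD 0). The SE and adjusted p of such probes therefore rest in part on the floor and not only on the spread between pools. List medians near 0 changed sign: with arrays scaled to an equal mean the reference genes stood at -0.10 and the ganglion cell genes at 0.07. The lens list had its median at -0.86 without R90Wneo/Wneo replicate 3 and the pigment epithelium list at -0.62 without WT replicate 1.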
